A study of Mus musculus with 8 samples.

Results

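Antigen-presenting cells talk to T cells through surface molecules that add a second signal to the one from the antigen receptor. CD80 and CD86 bind CD28 and CTLA-4 on T cells, ICOS ligand binds ICOS, PD-L1 binds the inhibitory receptor PD-1, and CD40 receives the signal of CD40 ligand from T cells. CD83 is a surface protein of activated antigen-presenting cells, and macrophages raise several of these molecules when a Toll-like receptor senses bacterial lipopolysaccharide (LPS).

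The RNA of 6 such genes was examined: Cd83, Cd86, Cd80, Cd40, Cd274, which encodes PD-L1, and Icosl, which encodes ICOS ligand. They are 6 of the 18193 genes with a probe set annotated to 1 gene. The genes were chosen by name as a functional group with measured values in view, those of Cd83 and Cd86 in LPS+M compared to LPS and of Cd40 in LPS compared to C. The values of all 6 genes in these 2 comparisons are therefore given as a description, with no p, and where they are counted against the limits for a call, nothing is drawn from the count.

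The cells were RAW 264.7, a mouse macrophage cell line grown in serum-containing medium, and all arrays came from this line alone. The groups were LPS+M, LPS, M and C, with 2 arrays in each. LPS+M had menthol for 1 hr, then LPS at 100 ng/ml for 6 hrs, and LPS had the same LPS without menthol. M had menthol, also recorded as 1 hr, without LPS, and C was the control. The labels used here gave neither the menthol dose nor the harvest time of M and C. They called the arrays of a group biological replicates without naming separate cultures, so the p-values cover the array-to-array spread of this experiment, in which part or all may be technical.

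Values are log2 GC-RMA signals, in which a difference of 1 is a doubling. Array medians were 2.99 to 3.04, and the arrays of a group correlated at 0.9988 to 0.9994 over all probe sets. A gene was tested where its main probe set, the one with the highest mean over the 8 arrays, averaged over 4.84, the average probe set signal, and 8908 genes did so. Of the macrophage markers, 10 of 11 lay above 4.84 in every group, and their list mean ranged from 11.6 to 11.7 in LPS+M, 11.59 to 11.61 in LPS, 11.8 to 11.81 in M and 11.7 to 11.77 in C. Of the markers of B cells, 0 of 4 lay above 4.84, of T cells 0 of 6, and of dendritic cells 1 of 9, Batf3, a transcription factor.

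Of the 6 genes, 5 were tested and Cd80 was not. Cd83 and Cd274 passed the limit only through the groups in which they were high: the mean of Cd83 was 5.59 over all arrays and 4.71 without LPS+M, and that of Cd274 was 5.16 over all arrays and 4.81 without LPS. Cd86, Cd40 and Icosl lay above the limit in every group. For Cd83 and Cd274, p-values therefore come only from a fit with no filter, while their SEs and intervals come from the fit over the tested genes. Neither gene carries weight in counts of tested genes. The arrays measured RNA of whole cultures, in which fewer cells of a kind and less RNA per cell cannot be told apart, and protein at the cell surface was not analysed here.

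Cd83, on mouse chromosome 13, had the widest span of the 6 genes. Its signal was 8.10 and 8.37 in LPS+M, 5.00 and 5.03 in LPS, 4.78 and 5.17 in M, and 3.93 and 4.36 in C. Both LPS+M arrays lay above all others, the LPS and M arrays overlapped each other, and both of these groups lay above C. In LPS+M compared to LPS, Cd83 was higher by 3.22 ± 0.17 (log2 fold change ± SE, n = 2 arrays per group), which is 9.29-fold. In LPS compared to C it was higher by 0.87 ± 0.17, or 1.83-fold.

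The comparison of M with C asked what menthol did to these genes without LPS. Cd83 was 0.83 ± 0.17 higher in M than in C (1.78-fold), which did not pass with no filter (limma, adjusted p = 0.0608). The difference was 0.64 without the second M array and 0.62 without the first C array. Against M, LPS+M was higher by 3.25 ± 0.17 (9.54-fold), given with no p since these LPS+M values were known. Against C, LPS+M was higher by 4.09 ± 0.17, or 17-fold.

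Cd86, which encodes a ligand of CD28 and CTLA-4 and lies on chromosome 16, divided the arrays by menthol and not by LPS. Its main probe set gave 10.32 and 10.21 in LPS+M, 9.07 and 8.96 in LPS, 10.24 and 10.20 in M, and 9.08 and 9.11 in C. The 4 arrays with menthol lay above the 4 without it, and the LPS+M and M arrays overlapped. The difference was 1.25 ± 0.07 in LPS+M compared to LPS (2.38-fold) and 1.12 ± 0.07 in M compared to C (2.18-fold, limma, adjusted p = 0.000132).

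The LPS differences of Cd86 were small with and without menthol. LPS compared to C gave -0.08 ± 0.07, with a 95% interval of -0.24 to 0.08. LPS+M compared to M gave 0.04 ± 0.07, with an interval of -0.12 to 0.20, given with no p since these LPS+M values were known. The sign of this difference turned to -0.01 without the first LPS+M array and to -0.03 with the mean of both probe sets. The second probe set of Cd86 gave 9.55 and 9.61 in LPS+M, 8.45 and 8.50 in LPS, 9.67 and 9.70 in M, and 8.50 and 8.55 in C, with the same split by menthol.

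**Figure D1:**
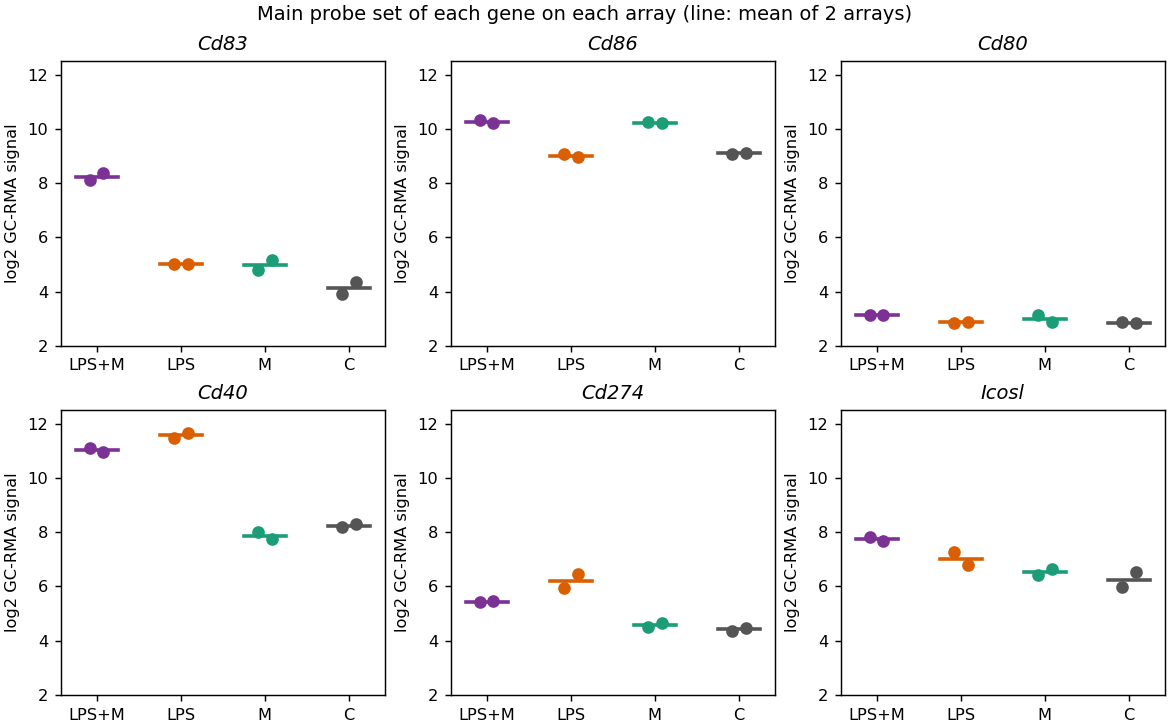
Log2 GC-RMA signal of the main probe set of each gene (y axis) on each of the 8 arrays, by group (x axis), where points are arrays and lines are means of 2 arrays. Cd83 averaged 8.23 in LPS+M and 4.14 in C, Cd86 is high in LPS+M and M, Cd40 is high in LPS+M and LPS, and all arrays of Cd80 lie between 2.85 and 3.15.

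Cd80, which encodes the other B7 ligand of CD28 and CTLA-4, also lies on chromosome 16. Its main probe set gave 3.15 and 3.13 in LPS+M, 2.86 and 2.87 in LPS, 3.13 and 2.88 in M, and 2.87 and 2.85 in C. All 8 arrays and all 4 of its probe sets lay under the limit of 4.84, at signals near the array medians. A low signal of this kind gives no order of expression, and the differences that follow come from a fit with no filter.

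Cd80 was 0.27 ± 0.08 higher in LPS+M than in LPS, 0.15 ± 0.08 in M than in C (limma, adjusted p = 0.465) and 0.13 ± 0.08 in LPS+M than in M (adjusted p = 0.574), and LPS compared to C gave 0.01 ± 0.08. A second probe set gave 3.26 and 2.98 in LPS+M against 2.73 to 2.77 in the other groups, and the LPS+M arrays did not overlap the rest. The remaining 2 probe sets, at 2.92 to 2.98 and at 2.31 to 2.36, overlapped in every comparison.

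**Figure D2:**
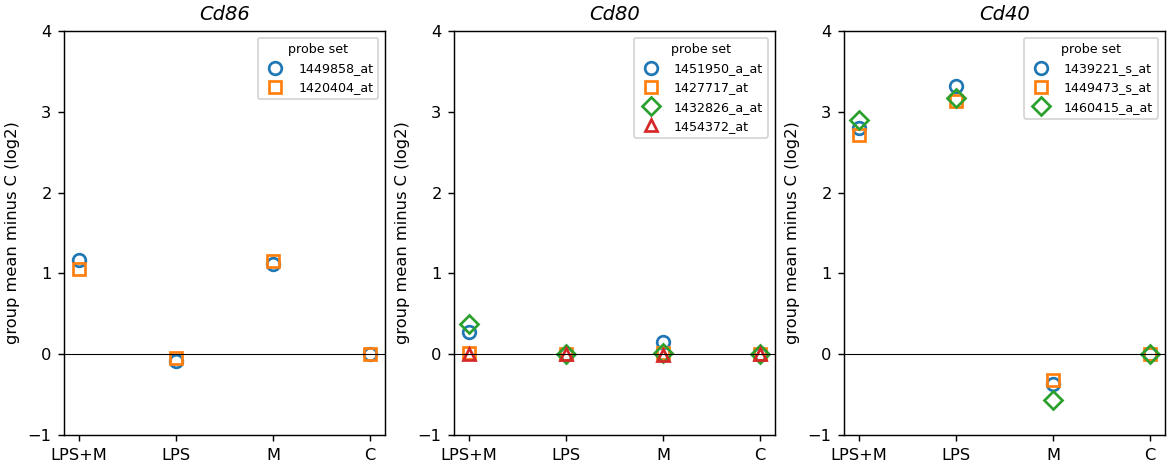
Group mean minus the mean of C, in log2 units (y axis), for each probe set of Cd86, Cd80 and Cd40 (symbols), by group (x axis). The 2 probe sets of Cd86 and the 3 of Cd40 keep the order of the groups apart from LPS+M and M for Cd86, whereas 2 of the 4 Cd80 probe sets stay at the level of C in every group.

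Cd40, a receptor of the TNF receptor family on chromosome 2, divided the arrays by LPS. Its main probe set gave 11.11 and 10.97 in LPS+M, 11.48 and 11.67 in LPS, 8.0 and 7.75 in M, and 8.19 and 8.30 in C. No group overlapped another: the order was LPS, LPS+M, C and M. Cd40 was higher by 3.32 ± 0.11 in LPS compared to C (10-fold), and upregulated by 3.16 ± 0.11 in LPS+M compared to M (8.97-fold, limma, adjusted p = 3.79e-06).

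With menthol, Cd40 was lower on both backgrounds by less than the 1.5-fold minimum for a call. The difference was -0.53 ± 0.11 in LPS+M compared to LPS, and -0.37 ± 0.11 in M compared to C. The latter is given with no p since the C values of Cd40 were known. Without the first LPS+M array or the first LPS array, the difference in LPS+M compared to LPS was -0.60 or -0.62, past that minimum. In M compared to C it was -0.24 without M 2, -0.32 without C 2, -0.42 without C 1 and -0.49 without M 1. The other 2 probe sets gave -0.42 ± 0.12 and -0.27 ± 0.08 in LPS+M compared to LPS, and -0.32 ± 0.12 and -0.57 ± 0.08 in M compared to C, so all 3 were lower with menthol.

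Cd274 encodes PD-L1, the ligand of the inhibitory receptor PD-1, on chromosome 19. Its signal was 5.43 and 5.45 in LPS+M, 5.96 and 6.47 in LPS, 4.49 and 4.65 in M, and 4.37 and 4.48 in C. The LPS arrays were highest, the LPS+M arrays lay between them and the arrays without LPS, and the gap between M and C was smaller than the spread within M. Cd274 was higher by 1.79 ± 0.15 in LPS compared to C (3.46-fold) and lower in LPS+M compared to LPS, by -0.78 ± 0.15 (1.71-fold), or -0.52 without the second LPS array, which is under the 1.5-fold minimum.

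Cd274 was upregulated in LPS+M compared to M by 0.87 ± 0.15 (1.83-fold, adjusted p = 0.0424 by limma with no filter). In the fit over the tested genes this call was lost without the first M array (0.79). M compared to C gave 0.14 ± 0.15 (adjusted p = 0.984 with no filter), with a 95% interval of -0.20 to 0.49.

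Icosl, on chromosome 10, encodes the ligand of the T cell costimulator ICOS. Its main probe set gave 7.82 and 7.68 in LPS+M, 7.26 and 6.80 in LPS, 6.42 and 6.66 in M, and 5.99 and 6.52 in C. Both LPS+M arrays were highest and both LPS arrays came next, while M and C overlapped. Icosl was higher by 0.72 ± 0.20 in LPS+M compared to LPS (1.65-fold) and by 0.77 ± 0.20 in LPS compared to C (1.71-fold).

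Icosl had the largest SE of the 6 genes, and its differences moved with single arrays. For LPS+M compared to LPS the difference was 0.65 with LPS+M 1 left out, 0.79 with LPS+M 2 left out and 0.49 with LPS 2 left out, and for LPS compared to C it was 0.54 without the first LPS array and 0.51 without the first C array. Icosl was upregulated in LPS+M compared to M by 1.20 ± 0.20 (2.30-fold, limma, adjusted p = 0.00665), lost without the first M array (1.08). M compared to C gave 0.29 ± 0.20 (adjusted p = 0.348). A second Icosl probe set stayed between 2.61 and 2.67 on all arrays.

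**Figure D3:**
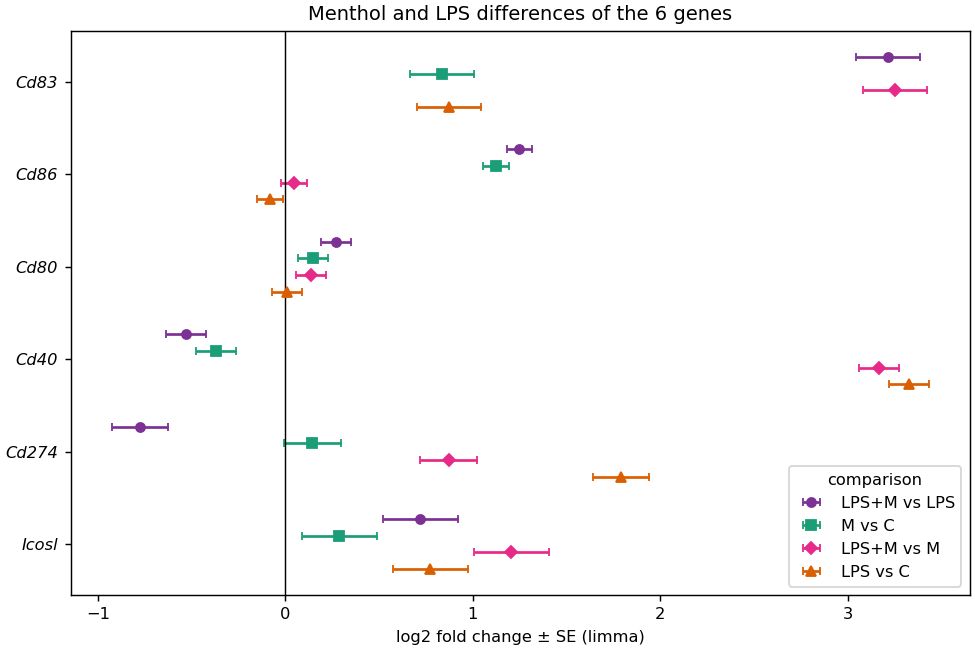
Log2 fold change with its SE (x axis) of each gene (y axis) in 4 comparisons of 2 arrays with 2, with symbols and colors for the comparison, where Cd80 comes from the fit with no filter. Cd86 lies at 1.25 and 1.12 in the menthol comparisons and at 0.04 and -0.08 in the LPS comparisons, Cd40 lies above 3 in both LPS comparisons, and Cd83 lies above 3 where LPS+M is set against LPS or M.

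The 250 bases upstream of annotated starts were read from RefSeq (GRCm38.p6, plus strand) for letters bound by factors that LPS and interferon activate. Such a stretch was at hand for 3 of the 6 genes, Icosl, Cd274 and Cd80, whatever their LPS difference. Icosl and Cd274 are shown because each held a match. Capitals mark the match, to the NF-kappaB consensus in Icosl and to GAAANNGAA, the core bound by interferon regulatory factors, in Cd274. The Icosl stretch is chr10:78069118-78069367, and that of Cd274 is chr19:29367188-29367437, inside the span of the gene, which runs from 29362107 to 29388095.
Icosl: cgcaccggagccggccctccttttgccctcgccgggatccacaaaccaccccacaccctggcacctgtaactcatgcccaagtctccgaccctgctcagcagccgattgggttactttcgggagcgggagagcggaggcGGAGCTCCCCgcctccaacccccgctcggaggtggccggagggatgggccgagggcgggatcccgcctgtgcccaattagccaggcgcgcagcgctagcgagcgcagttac
Cd274: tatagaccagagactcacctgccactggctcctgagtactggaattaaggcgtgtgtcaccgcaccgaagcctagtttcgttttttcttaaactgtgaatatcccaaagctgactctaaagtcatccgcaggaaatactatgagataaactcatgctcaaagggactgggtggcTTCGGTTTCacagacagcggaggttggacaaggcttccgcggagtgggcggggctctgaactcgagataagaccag
The match in Icosl lay on the minus strand at -111 to -102 from the start, and that in Cd274 on the minus strand at -76 to -68. Both strands were searched. Of 32851 promoters of the same length, 7.25% held the NF-kappaB consensus, 7.13% held GAAANNGAA and 7.02% held TTCNNNGAA, the form bound by STAT factors. No stretch of the 3 genes held the last of these, and Cd80 held none of them. The motifs were chosen after these letters had been seen, and a match is a run of letters and not a measured site.

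The interaction of menthol and LPS asked whether the menthol difference with LPS differed from that without it. It uses the same LPS+M and LPS arrays as the description above and is given in the same way. For Cd83 it was 2.38 ± 0.24. For Cd274 it was -0.92 ± 0.21, its signal being lower in LPS+M than in LPS and not lower in M than in C. For Cd86 it was 0.13 ± 0.10, for Cd40 -0.16 ± 0.15, for Icosl 0.43 ± 0.28 and for Cd80 0.13 ± 0.11. These values do not show that the menthol difference of any gene was alike with and without LPS.

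**Figure D4:**
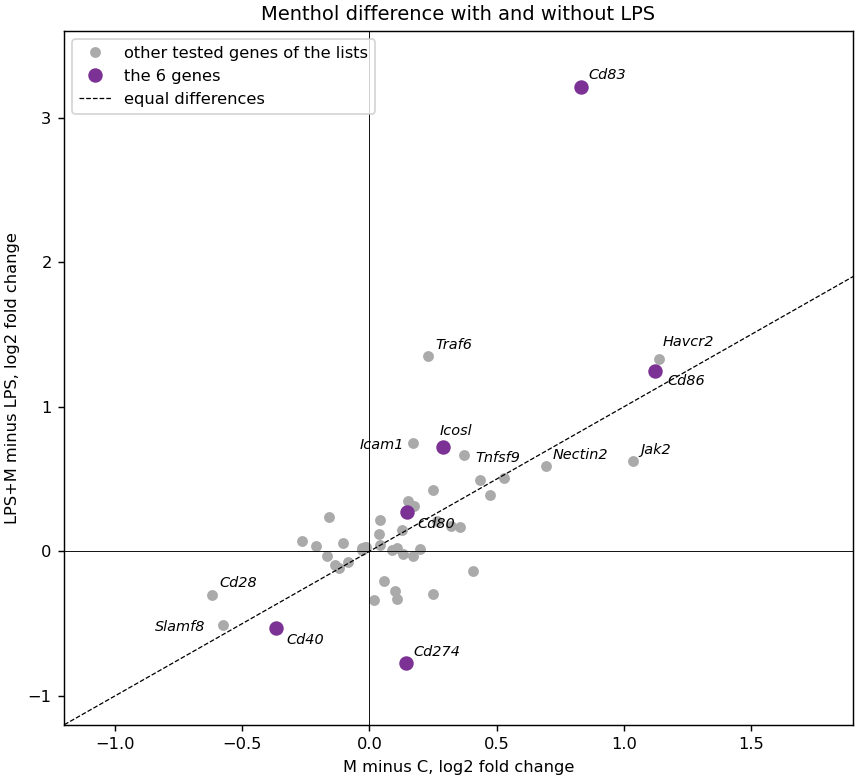
Log2 fold change of LPS+M minus LPS (y axis) against that of M minus C (x axis) for the 6 genes (purple) and the other tested genes of the pathway lists (gray), where the dashed line marks equal differences. Cd83 lies above the line at 0.83 and 3.22, Cd274 lies below it at 0.14 and -0.78, and Cd86 lies near it at 1.12 and 1.25.

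Calls needed a Benjamini-Hochberg adjusted p under 0.05 over the 8908 tested genes and a 1.5-fold change. Cd86, Cd40 and Icosl were the 3 genes above the signal limit in every group. In M compared to C, Cd40 is not counted, since its C values were known. Cd86 was called higher there and Icosl was not called, where 3.01% of all tested genes were called higher and 1.54% lower. With LPS+M compared to M, Cd86 is not counted, since its LPS+M values were known. Cd40 and Icosl were both called higher there, where 2.39% of tested genes were called higher and 1.77% lower. These counts over so few genes are a description. With 2 arrays in each group an exact permutation test of a single gene cannot give a two-sided p below 0.333, so these calls rest on the spread that limma shares across genes.

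For the comparisons whose results were known, the genes past the limits are named among Cd86, Cd40 and Icosl, with nothing drawn from them. In LPS+M compared to LPS these were Cd86 and Icosl, both higher, and the background was 4.22% higher and 2.49% lower. In LPS compared to C they were Cd40 and Icosl, both higher, and the background was 3.17% and 2.96%. Icosl did not pass in either comparison with no filter. In the interaction none of them passed, and the background was 0.0337% and 0.202%. Cd83 and Cd274 were left out here, since they passed the signal limit only through the groups in which they were high.

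Genes around these molecules were read from lists of the pathway. Of 9 other B7 and related ligands, 8 were on the array and 4 were tested. Nectin2, an adhesion molecule that binds CD226 on T cells, was 7.68 and 7.32 in LPS+M, 6.96 and 6.85 in LPS, 6.79 and 7.08 in M, and 6.12 and 6.37 in C. Both treatments alone and together lay above C without overlap. It was upregulated in M compared to C (0.69 ± 0.15, limma, adjusted p = 0.0139), in LPS compared to C (0.67 ± 0.15, adjusted p = 0.0155), and also with LPS+M compared to LPS (0.59 ± 0.15, adjusted p = 0.0202). The first call was lost without the second M array (0.55) or the first C array (0.57), and the second without the first LPS array (0.61) or the first C array (0.54). All 3 calls were lost with no filter (adjusted p = 0.0621, 0.0667 and 0.0793) and when its probe sets were averaged (0.42, 0.45 and 0.44, under the 1.5-fold minimum). The last call was lost without any one of the LPS+M 1, LPS 1 and LPS 2 arrays (0.42, 0.65 and 0.54) and with the arrays set to 1 common median over the tested genes (0.56).

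Vsir, which encodes the inhibitory ligand VISTA, was the other member of that list that passed. It was 9.94 and 9.95 in LPS+M, 9.77 and 9.70 in LPS, 10.96 and 11.03 in M, and 10.76 and 10.71 in C, so all arrays with LPS lay below those without. It was downregulated in LPS compared to C by -0.996 ± 0.06 (limma, adjusted p = 3.74e-05), and with LPS+M compared to M by -1.05 ± 0.06 (adjusted p = 3.85e-05).

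Of 11 TNF-family costimulatory ligands and receptors, 9 were on the array and only Tnfsf9, which encodes 4-1BB ligand, was tested. It was 10.42 and 10.36 in LPS+M, 9.65 and 9.80 in LPS, 10.60 and 10.63 in M, and 10.20 and 10.28 in C. It was upregulated in LPS+M compared to LPS by 0.67 ± 0.07 (limma, adjusted p = 0.000669) and was not called in the other comparisons. The LPS arrays lay below those of every other group.

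Of 11 genes of SLAM receptors, adhesion and the CD47 axis, 7 were tested. Icam1, an adhesion molecule that binds the integrin LFA-1 of T cells, was 12.23 and 12.20 in LPS+M, 11.49 and 11.45 in LPS, 9.88 and 9.91 in M, and 9.72 and 9.72 in C. It was upregulated in LPS compared to C by 1.75 ± 0.06 (limma, adjusted p = 2.21e-06), and further when LPS+M was compared to LPS, by 0.75 ± 0.06 (adjusted p = 0.000161). Slamf8, a SLAM receptor of macrophages, was upregulated in LPS compared to C by 0.66 ± 0.08 (adjusted p = 0.00094), and its differences with menthol, -0.51 ± 0.08 in LPS+M compared to LPS and -0.58 ± 0.08 in M compared to C, were under the 1.5-fold minimum. Its rise in LPS compared to C fell under that minimum without the first C array (0.57), while in M compared to C it passed without the first M array (-0.62) or the first C array (-0.67), after quantile normalization (-0.60) and at the common median (-0.62). With none of these changes, 0 of the 7 were called in M compared to C, near the background of 3.01% higher and 1.54% lower.

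Of 9 receptors that T cells use on the other side of these contacts, 8 were on the array and 2 were tested. Havcr2, which encodes TIM-3 and is also expressed by macrophages, was 8.94 and 8.86 in LPS+M, 7.31 and 7.82 in LPS, 9.64 and 9.74 in M, and 8.55 and 8.55 in C. The LPS arrays were lowest and the M arrays highest, with no overlap. It was upregulated in M compared to C by 1.14 ± 0.14 (limma, adjusted p = 0.00207), and likewise when LPS+M was compared to LPS, by 1.33 ± 0.14 (adjusted p = 0.00068), and downregulated in LPS compared to C by -0.98 ± 0.14 (adjusted p = 0.00263). Cd28, the receptor of CD80 and CD86, was called lower in M compared to C (-0.62 ± 0.09, adjusted p = 0.00365) and in LPS compared to C (-0.76 ± 0.09, adjusted p = 0.00108). Its call in M compared to C was lost without the first C array (-0.54).

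Of 9 adaptors and signaling genes of CD40, 8 were tested, and in M compared to C 0 of them were called, which is near the background of 3.01% higher and 1.54% lower. In LPS compared to C, Birc3, a ubiquitin ligase of TNF receptor complexes, was upregulated by 1.28 ± 0.07 (limma, adjusted p = 2.71e-05). Traf1, an adaptor of the same complexes that lay above the signal limit only with LPS, gave 3.23 ± 0.22. Traf6, an adaptor of both CD40 and Toll-like receptors, was 6.44 and 6.15 in LPS+M, 4.62 and 5.27 in LPS, 6.08 and 6.11 in M, and 5.82 and 5.91 in C. The LPS arrays lay below all others. It was downregulated in LPS compared to C by -0.92 ± 0.19 (adjusted p = 0.012) and upregulated in LPS+M compared to LPS by 1.35 ± 0.19 (adjusted p = 0.00212), and the call in LPS compared to C was lost with no filter (adjusted p = 0.061) and without either C array (-0.97 and -0.87).

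Of 15 regulators of surface CD83, CD86 and PD-L1, 12 were tested, and in each of 4 comparisons 1 was called higher and 11 were not called. Of all tested genes, 3.01% were called higher in M compared to C and 3.17% in LPS compared to C. The share was 4.22% in LPS+M compared to LPS and 2.39% in LPS+M compared to M, and nothing is drawn from the count. The called gene was Jak2, a kinase of cytokine receptors, at 10.55 and 10.41 in LPS+M, 9.86 and 9.85 in LPS, 9.33 and 9.38 in M, and 8.26 and 8.37 in C. Its groups did not overlap and stood in that order. It was upregulated in M compared to C by 1.04 ± 0.07 (limma, adjusted p = 0.000189), in LPS compared to C by 1.54 ± 0.07 (adjusted p = 9.68e-06) and, with LPS+M compared to LPS, by 0.62 ± 0.07 (adjusted p = 0.000927), the last lost without the first LPS+M array (0.56).

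Genes of antigen display came next, and of 9 for MHC class I, all tested, 0 were called in M compared to C, LPS compared to C or LPS+M compared to LPS, near the backgrounds given above. Nlrc5, a transactivator of MHC class I genes that is named after its values were seen, was the 1 gene of the list called higher in LPS+M compared to M (0.75 ± 0.09, limma, adjusted p = 0.00166). Of 7 genes of MHC class II display, 6 were on the array and only Cd74, the invariant chain, was tested. Cd74 was 11.84 and 11.59 in LPS+M, 11.51 and 11.23 in LPS, 11.70 and 11.79 in M, and 11.51 and 11.67 in C, was called in none of these comparisons, and gave 0.35 ± 0.12 in LPS+M compared to LPS (limma, adjusted p = 0.0629).

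**Figure D5:**
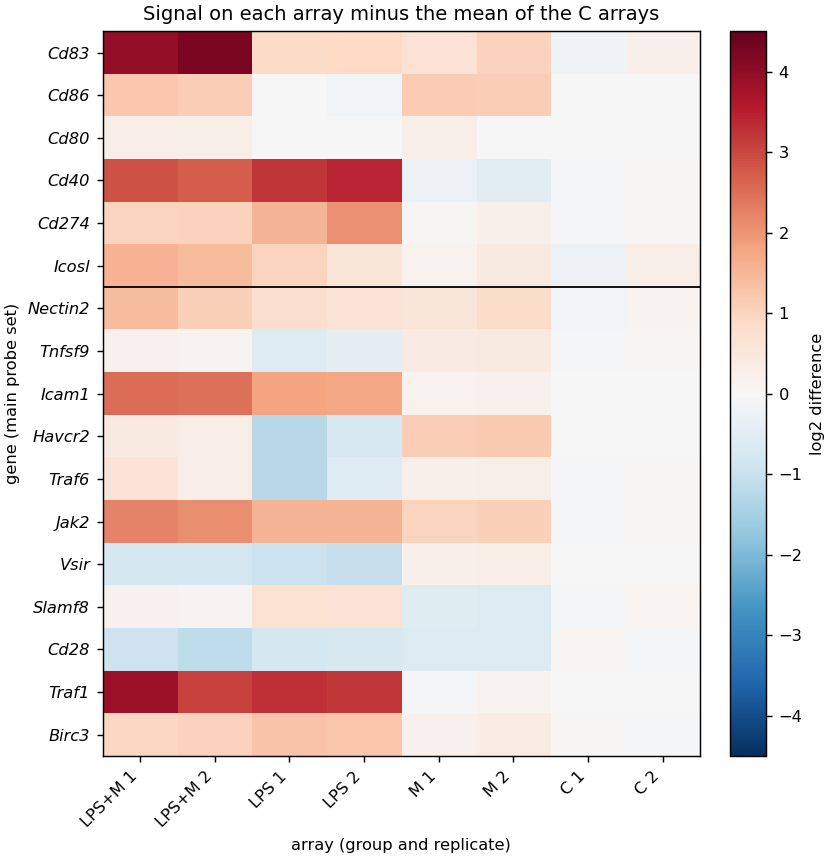
Signal of the main probe set of each gene (y axis) on each array (x axis) minus the mean of the 2 C arrays, in log2 units (color), with the 6 genes above the line and the named pathway genes below it. Cd83 is darkest in LPS+M, at a mean of 8.23 against 4.14 in C, Cd40 and Traf1 are red in LPS+M and LPS, and Vsir is blue in both groups with LPS.

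Some macrophage markers also moved with LPS. Of the 10 tested, 1 was called higher and 2 lower in LPS compared to C, and 7 were not called. The background there was 3.17% higher and 2.96% lower. Adgre1, a surface receptor that marks mouse macrophages, was called higher in LPS compared to C (0.95 ± 0.07, limma, adjusted p = 6.8e-05), and the Fc receptor genes Fcgr1 (-0.89 ± 0.10, adjusted p = 0.00085) and Fcgr3 (-0.89 ± 0.10, adjusted p = 0.000566) were called lower. In M compared to C and in LPS+M compared to LPS, 0 of the 10 tested macrophage markers were called, near the backgrounds given above. The part of these shifts in the values of the 6 genes was not tested.

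The genes whose signal followed each of the 6 most closely were sought among 513 tested genes whose group means spanned at least 1 log2 unit, by Pearson's r over the 8 arrays. These arrays share 4 groups, so r describes the pattern over groups and carries no p. For Cd83 they were Maff, a small MAF transcription factor (r = 0.991), Rab11fip1 (0.973) and Ccrl2, a chemokine-binding receptor (0.971). Maff passed the signal limit only through LPS+M, at 5.61 and 5.83 there and 4.28 to 4.70 on the other arrays. Ccrl2 was 8.60 and 8.57 in LPS+M, 6.75 and 6.86 in LPS, 6.22 and 6.36 in M, and 5.72 and 5.53 in C, so that, as for Cd83, both LPS+M arrays lay above all others.

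For Cd86 they were Chd2 (0.994), Atf5, a stress-related transcription factor (0.994), and Heca (0.993). Atf5 was 11.56 and 11.47 in LPS+M, 10.05 and 9.99 in LPS, 11.37 and 11.57 in M, and 10.23 and 10.22 in C, again divided by menthol. For Cd40 they were Swap70 (0.998), the cytokine gene Tnf (0.996) and Gpr84 (0.996), and Tnf was 10.65 and 10.54 in LPS+M, 10.93 and 10.92 in LPS, 8.43 and 8.31 in M, and 8.29 and 8.55 in C. For Cd274 they were the chemokine gene Ccl5 (0.990), Mfap3l (0.986) and Exoc3l4 (0.985). For Icosl they were Nfkbib, which encodes an inhibitor of NF-kappaB (0.978), Dtx4 (0.957) and the growth factor gene Csf1 (0.955), and for Cd80, at its low signal, Stk40 (0.885), Slc49a4 (0.877) and Slc7a1 (0.870).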

How the data were processed

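RNA of RAW 264.7 cells was measured on 8 Affymetrix mouse arrays, and groups came from the treatment labels. The authors deposited log2 signals, for which the labels name GCRMA, version 2.10.0, and R, version 2.6.1. GC-RMA corrects background by probe GC content, quantile normalizes the arrays and can shrink differences of dim probe sets. Of 45101 probe sets, 34945 had 1 symbol in the annotation and were used, while 932 with several, 9160 with none and 64 controls were left out.

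The tested genes were fitted over the 8 arrays at once by the linear model and moderated statistics of limma 3.58.1 under R 4.3.3 (1 coefficient per group, 4 residual and 3.778 prior degrees of freedom) and p-values were adjusted over these 8908 genes by Benjamini-Hochberg. Precision is limited by having 2 arrays a group. The fit was tested on simulated data.

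The genes, the 13 lists and the rules for naming genes were set with earlier results of these data known. All 6 genes were named, with, from each list, up to 3 called genes with the largest change in LPS+M compared to LPS and up to 2 in LPS compared to C and in M compared to C, and the 3 nearest patterns of each gene. Alternatives were other filters, probe set summaries, normalizations, tests, fold minimums, the replicate block and each array left out. Promoter sequences came from RefSeq (GRCm38.p6).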

Additional observations from a re-analysis of the deposited data

Results flagged for a closer look

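The menthol difference of Cd83 with LPS was larger than that without LPS by 2.38 on the log2 scale (LPS+M minus LPS against M minus C, interaction term of the limma fit). Both differences ran upward, in 2 of 2 LPS+M arrays and 2 of 2 M arrays. The same LPS+M and LPS values were known when the gene was chosen, so the value is a description. The term carries no call, since Cd83 passed the signal limit only through LPS+M. With no filter, and with each probe set tested by itself, it did not pass the limits. Its value was 2.52 without the first LPS+M array, and 2.19 and 2.58 without the first or the second M array.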

How the results depend on the processing

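The number of the 6 genes past the limits for a call, Cd83 and Cd274 included, was recomputed under each alternative. These 2 genes passed the signal limit only through the groups in which they were high. Values of LPS+M compared to LPS and of LPS compared to C were known when the genes were chosen. The counts, here and with the replicate block, show how the limits act, and nothing is drawn from them. In M compared to C (2), it was 1 with no filter, with a stricter filter, with the methods' t-test unadjusted and with a fold minimum of 2, and 3 with no fold minimum. In LPS compared to C (4), it was 2 with the stricter filter, 1 with that t-test and 2 with the fold minimum of 2. It was 3 there with no filter, with the mean of probe sets and with only the compared groups. In LPS+M compared to LPS (4), it was 2 with the stricter filter, with that t-test and with the fold minimum of 2. Icosl was also lost there with no filter, and Cd40 passed with no fold minimum. In LPS+M compared to M (4), it was 2 with the stricter filter, and Cd274 was lost with the fold minimum of 2. Smaller moves under other alternatives are not all listed. In the interaction (1), it was 0 with no filter, with the stricter filter and with each probe set tested by itself. The methods' t-test after Benjamini-Hochberg adjustment called 0 in M compared to C, LPS compared to C, LPS+M compared to LPS and LPS+M compared to M, over all genes too. The stricter filter, at a mean of 6, leaves out Cd83 and Cd274 by construction. With 1 array left out, the lone array of a group being assumed to vary like the others, the counts ranged from 1 to 2 in M compared to C, 2 to 4 in LPS compared to C, 2 to 5 in LPS+M compared to LPS, 2 to 4 in LPS+M compared to M and 0 to 2 in the interaction.

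Signs turned for small differences: in LPS+M compared to M for Cd86 (-0.028 with the mean of probe sets, and -0.014 to 0.103 with an array left out), in the interaction for Cd40 (0.013 with the mean of probe sets), and for Traf1 in M compared to C (-0.0051 at the same median of the tested genes, and -0.076 to 0.162 with an array left out) and in LPS+M compared to LPS (-0.172 to 0.608 with an array left out). The cause was not tested.

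Deviations of same-numbered arrays correlated at -0.136 to 0.315, over 0.1 in 4 of 6 pairs of groups and not in all, so the numbers were not taken to pair the arrays, and Cd83 was higher in the second array of all 4 groups. With the replicate block, 2, 4, 4, 4 and 1 of the 6 genes were called, as without it, and 408, 549, 603, 374 and 20 of all genes, against 405, 546, 598, 371 and 21 without it, in the order M compared to C, LPS compared to C, LPS+M compared to LPS, LPS+M compared to M and the interaction.

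Over all genes, counts moved by over 1.5 times with the mean of probe sets (253 in M compared to C and 371 in LPS+M compared to LPS), each probe set by itself (925 in LPS+M compared to LPS), the t-test unadjusted (254, 349, 288 and 217), no fold minimum (1934, 1935, 2560 and 1268) and a fold minimum of 2 (85, 184, 136 and 136). The interaction count was 1 with no filter, 2 with each probe set, 45 with a trended robust fit, 11 with a fold minimum of 2 and 2 to 40 with an array left out. At the same median of the tested genes, an alternative chosen after seeing the data, 213 genes were called higher and 186 lower in M compared to C, against 268 and 137 otherwise.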
